A study of Homo sapiens with 6 samples.

Results

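The 48 genes described here encode proteins of the nucleolus that transcribe ribosomal RNA (rRNA) or turn it into ribosomal subunits. They were chosen by name: RNA polymerase I (Pol I) subunits and factors, proteins of small nucleolar ribonucleoproteins (snoRNPs), and assembly factors of both ribosomal subunits. Of these, 41 were measured among 19775 genes in all. NOP56, DKC1, BOP1 and PPAN were only on probe sets annotated to several genes, and EBNA1BP2, GNL3 and DDX18 on no probe set named here, so these 7 have no value.

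The samples were MOLM-14 cells, an established human acute myeloid leukaemia line with an MLL-AF9 rearrangement. Cells in 3 samples were kept for 24 h in 10 nM cortistatin A (CA), an inhibitor of the Mediator kinases CDK8 and CDK19, and cells in 3 samples for 24 h in the vehicle DMSO. All 6 samples were of this 1 line and were each hybridised to 1 Affymetrix U133 Plus array. Per the labels the cells were plated in triplicate wells. No label speaks of separate cultures, so the p-values reflect well-to-well spread, which may be technical. As RNA was taken from whole wells, fewer cells of 1 type and less of a transcript per cell cannot be told apart.

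In the nucleolus, Pol I transcribes a long precursor that holds the 18S, 5.8S and 28S rRNAs. UBTF and RRN3 recruit the polymerase, snoRNPs guide chemical modification of the precursor, and a large processome folds and cuts its 18S part while other factors build the large subunit around the 28S part. The pathway is highly active in growing leukaemia cells, many of its genes are known targets of MYC, and in acute myeloid leukaemia NPM1 is often mutated.

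Almost all measured members lay slightly higher after CA, and few passed the test. On the log2 scale the change (CA minus DMSO) was above 0 in 38 of the 41 members, against 48.8% of all genes tested, with a median of 0.08 in the members and -0.003 over all genes. By limma with Benjamini-Hochberg adjustment over all genes, 6 members were called higher at an adjusted p under 0.05: UTP6, UTP15 and HEATR1 of the small-subunit processome, NOLC1, a chaperone of snoRNPs, NOP2, a methyltransferase of 28S rRNA, and GAR1, a core protein of box H/ACA snoRNPs. UBTF, the upstream binding factor of Pol I, was called lower. The 6 higher calls are 14.6% of the members, where 6.64% of all genes were called higher, and the 1 lower call is 2.44%, where 4.49% of all genes were called lower. The members are mostly bright genes, which are called more often: among members with a mean log2 of at least 9, 16.7% were called higher, against 12.3% of all genes at that level. Of those bright members 97.2% were above 0, against 50.7% of all such genes. Members of 1 pathway are not independent, and no test over the group was made. The number called higher ranged from 0, at a minimum change of 1.2-fold, to 20, with limma's intensity trend and robust moderation, over the 19 alternative settings tried. The members' share called higher was above that of all genes in 13 of the 19 and not in the other 6. The members' median was 0.07 to 0.11 under the 13 settings that could move it.

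The sizes were small. The 6 members called higher rose by 0.17 to 0.25, and 852 called genes elsewhere on the array rose by more than the largest of them. UBTF, the 1 called lower, fell by 0.30, and 348 called genes fell by more. On single arrays, the median member lay 0.07, 0.09 and 0.11 above its DMSO mean in CA replicates 1, 2 and 3, and within 0.01 of it on each DMSO array. The 3 DMSO arrays themselves make up that mean, which centres their deviations on 0 for each gene. All 3 CA values lay above all 3 DMSO values in 28 members (68.3%), against 16.6% of all genes and 31.2% of those with a mean log2 of at least 9 (69.4% of such members), and below them in 1 member, UBTF, against 15.2% of all genes. In the other 12 members the groups overlapped. RMA gives all arrays nearly the same distribution of values, so the arrays show a gene's share of the labelled RNA, and a change in RNA per cell common to all genes cannot be told apart from none.

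**Figure D1:**
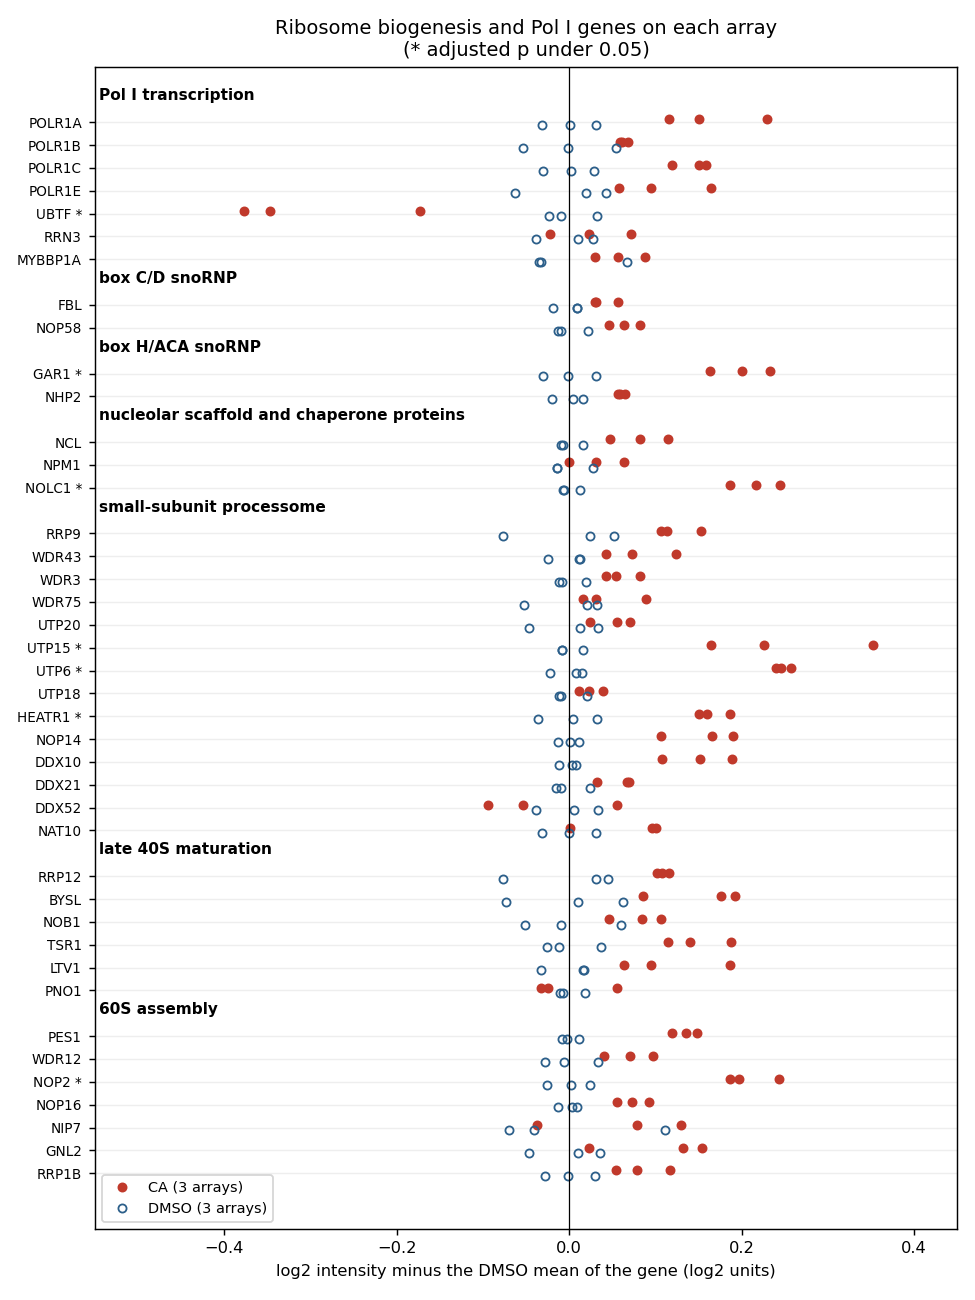
Log2 intensity of each measured member on each array, minus the gene's DMSO mean (x axis, log2 units), with genes grouped by role (rows); filled points are the 3 CA arrays, open points the 3 DMSO arrays, and asterisks mark an adjusted p under 0.05. Most CA points sit to the right of 0 by less than 0.25, while those of UBTF sit to its left.

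**Figure D2:**
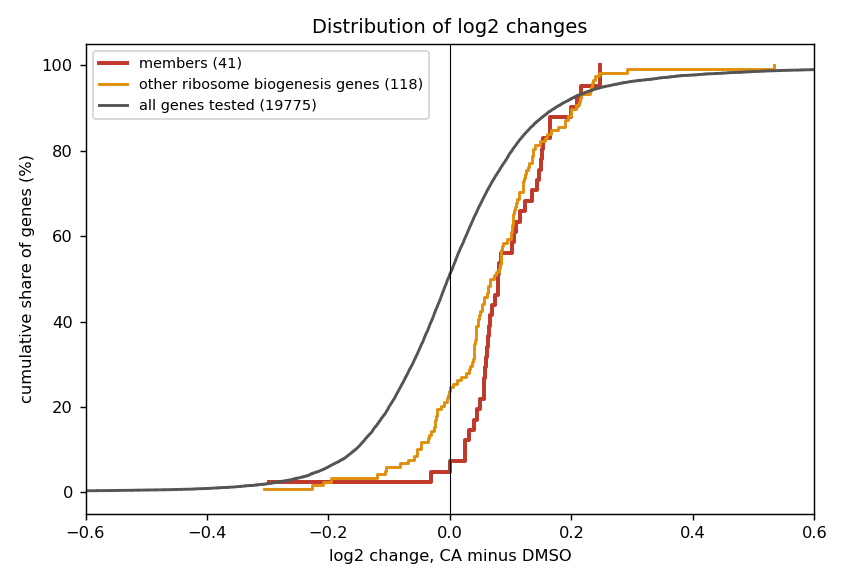
Cumulative share of genes (y axis, percent) by log2 change, CA minus DMSO (x axis), for the 41 members, 118 other ribosome biogenesis genes and all 19775 genes tested. The curve of the members crosses 0 near its foot (3 of 41 below 0), and the curve of all genes near its middle.

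The promoter stretches of 5 members are shown because they span the main outcomes: GAR1, UTP6 and HEATR1, which rose, UBTF, which fell, and FBL, which was not called. Each runs from 150 bases before the annotated transcript start to 30 bases after it, 5′ to 3′ on the gene's own strand (RefSeq, GRCh38.p14; the first window listed where a gene has several). Capitals mark the E-box CACGTG, a sequence bound by MYC and MAX, and CCGGAAG or its reverse complement CTTCCGG, the core of sites bound by ETS factors.
GAR1, chr4:109815360-109815539, plus strand: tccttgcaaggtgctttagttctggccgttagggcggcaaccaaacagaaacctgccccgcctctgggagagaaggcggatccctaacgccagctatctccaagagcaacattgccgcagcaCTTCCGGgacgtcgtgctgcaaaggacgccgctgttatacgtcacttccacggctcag
UTP6, chr17:31901679-31901858, minus strand: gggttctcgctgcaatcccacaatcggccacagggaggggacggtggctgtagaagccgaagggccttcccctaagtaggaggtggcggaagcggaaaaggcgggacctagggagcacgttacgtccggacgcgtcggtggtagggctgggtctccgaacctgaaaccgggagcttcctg
HEATR1, chr1:236604487-236604666, minus strand: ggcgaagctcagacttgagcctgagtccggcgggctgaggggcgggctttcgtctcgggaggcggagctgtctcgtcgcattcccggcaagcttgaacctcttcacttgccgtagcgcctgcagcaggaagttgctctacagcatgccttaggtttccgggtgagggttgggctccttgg
UBTF, chr17:44220853-44221032, minus strand: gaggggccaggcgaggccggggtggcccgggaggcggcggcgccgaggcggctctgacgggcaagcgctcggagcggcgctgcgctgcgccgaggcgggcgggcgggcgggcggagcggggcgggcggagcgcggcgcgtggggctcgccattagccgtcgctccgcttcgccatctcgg
FBL, chr19:39846350-39846529, minus strand: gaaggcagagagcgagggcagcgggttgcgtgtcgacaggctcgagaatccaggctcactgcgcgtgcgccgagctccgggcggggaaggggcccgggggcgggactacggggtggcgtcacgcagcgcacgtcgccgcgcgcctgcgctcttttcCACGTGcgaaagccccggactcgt
FBL carries an E-box that begins at base 7 of its transcript, GAR1 an ETS-like match before its start, and the other 3 stretches neither. FBL also has a CCGGAAG match that begins 193 bases before its start, ahead of the stretch shown. The E-box of GAR1 lies in the second of its 2 listed windows, which is not shown. It begins at base 32 from the start annotated there.

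Both motifs were searched on both strands in windows of 250 bases before to 50 bases after the start, for the 40 members in the promoter table. CACGTG was found in 18 of these members (45%), against 8.77% of all 27305 genes in the table and 10.9% of the 15384 measured ones. Of its 20 matches in member windows, only 6 began before the start, and 7 members (GNL2, WDR43, PNO1, GNL3, UTP18, FBL and PES1) had one that began within the first 15 bases of the transcript. CCGGAAG was found in 15 members (37.5%), against 12.2% of all genes and 16.6% of measured ones. The 16 measured members with CACGTG had a median change of 0.09, with 2 called in either direction. The 19 without it had a median of 0.07, with 4 called, among them UBTF, which was called lower. Over all genes 11.1% were called in either direction. For CCGGAAG the order was the other way, with a median of 0.06 in the 13 measured members that hold it, 1 of them called. It was 0.08 in the 22 without it, 5 of them called in either direction, again with UBTF among them. Of 2 further motifs searched, GGGCGG (bound by SP1) was found in 32 of the 40 members, against 48.3% of all genes and 64.6% of measured ones, and TATAAA in 2, against 14.0% of all genes and 11.5% of measured ones. Member windows were richer in G and C (median 64.0%) than all windows (median 58.7%), and the part of base composition in these shares was not tested. A match is a description of these letters, not of binding. MYC itself was at 13.02, 12.99 and 13.02 in CA and 12.91, 12.92 and 12.94 in DMSO (log2), a change of 0.09 (SE 0.03, adjusted p = 0.179), and MAX was at -0.02 (adjusted p = 0.781).

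Of the 7 measured Pol I transcription genes, UBTF fell and the other 6 lay above 0 without passing the test. UBTF, which binds rDNA and keeps it open for Pol I, was at 7.89, 8.09 and 7.92 in CA, against 8.30, 8.26 and 8.24 in DMSO (log2). Every CA value lay below every DMSO value, with CA replicate 2 nearest to DMSO. UBTF fell 1.23-fold, with means of 7.97 ± 0.11 in CA and 8.27 ± 0.03 in DMSO (SD, n = 3; log2 change -0.30, SE 0.06, adjusted p = 0.0269 by limma). This fall rests on 1 of its 5 probe sets: the next brightest was at 0.12 (SE 0.05), the others at 0.05, -0.08 and -0.09, and the mean of all 5 gave -0.06 (adjusted p = 0.513). With 1 array left out, UBTF kept its call only without CA replicate 2 (adjusted p = 0.0120) and had adjusted p of 0.0780 to 0.0921 otherwise.

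POLR1A, the largest subunit, was at 8.27, 8.35 and 8.24 in CA and 8.09, 8.15 and 8.12 in DMSO (change 0.17, 95% confidence interval 0.06 to 0.27, adjusted p = 0.0662 by limma). Its groups did not overlap, and its 3 probe sets were all above 0, at 0.08 to 0.18. POLR1B, the second largest subunit, was at 0.06, POLR1C, shared with Pol III, at 0.14 (adjusted p = 0.0575), and POLR1E at 0.11. RRN3, the initiation factor TIF-IA that brings Pol I to UBTF-bound promoters, was at 10.42, 10.46 and 10.51 in CA and 10.47, 10.45 and 10.40 in DMSO. The groups overlapped, at a change of 0.02 (95% confidence interval -0.08 to 0.13). MYBBP1A, a nucleolar protein that binds MYB and restrains Pol I, was at 0.06.

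Of the snoRNP proteins, GAR1 rose. GAR1 binds the pseudouridine synthase DKC1 in box H/ACA snoRNPs, and was at 11.03, 11.10 and 11.07 in CA and 10.87, 10.90 and 10.84 in DMSO. The groups were apart by more than the spread within either (log2 change 0.20, SE 0.04, 1.15-fold, adjusted p = 0.0235 by limma). The call was lost with any 1 of the 6 arrays left out (adjusted p of 0.0503 to 0.0884). NHP2, of the same particles, was at 0.06 (adjusted p = 0.337). Neither box C/D protein was called. FBL, the methyltransferase fibrillarin, was at 12.94, 12.94 and 12.97 in CA and 12.92, 12.92 and 12.89 in DMSO. The difference was 0.04 (95% confidence interval -0.04 to 0.12) for FBL and 0.06 (-0.02 to 0.15) for NOP58, a scaffold of the same particles, although neither gene's groups overlapped.

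Among the abundant nucleolar proteins, NOLC1 rose on several probe sets. NOLC1, also called Nopp140, was at 13.12, 13.15 and 13.18 in CA and 12.93, 12.93 and 12.95 in DMSO. All CA values were above all DMSO values (log2 change 0.22, SE 0.04, 1.16-fold, adjusted p = 0.0130 by limma). Its other 2 probe sets were at 0.29 and 0.23, and when probe sets were tested singly 2 of the 3 were called. Without CA replicate 2 or 3 NOLC1 just missed the threshold (adjusted p = 0.0531 and 0.0532). NCL (nucleolin, which binds rDNA chromatin and pre-rRNA) was at 13.53, 13.57 and 13.60 in CA and 13.48, 13.50 and 13.48 in DMSO, a change of 0.08 (95% confidence interval -0.01 to 0.17). NPM1 (nucleophosmin, a histone and ribosome chaperone) was at 14.34, 14.40 and 14.37 in CA and 14.33, 14.37 and 14.33 in DMSO. The NPM1 groups overlapped, and its 3 probe sets gave 0.032, 0.035 and 0.033. NPM1 lies close to the brightest probe sets of the arrays (maxima of 14.98 to 15.01), where intensities can be compressed.

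The small-subunit processome, the largest role group, held 3 of the 6 rises among its 14 members. That is 21.4% of the group, against 14.6% of all members and 12.3% of all genes whose mean log2 reached 9. With so few calls, no difference between role groups can be read from these shares, and none was tested. UTP6, a subunit of the complex called UTP-B in yeast, had the smallest adjusted p of all members. It was at 11.96, 11.95 and 11.95 in CA and 11.71, 11.72 and 11.68 in DMSO (log2 change 0.25, SE 0.03, 1.19-fold, adjusted p = 0.00686 by limma). The CA arrays differed from each other by 0.02 at most, far less than from DMSO. The second UTP6 probe set, dim at a mean of 3.59, was at -0.01. UTP6 was the 1 member called with each array left out in turn (adjusted p of 0.0253 to 0.0355).

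UTP15 and HEATR1 belong to the subcomplex that also promotes Pol I transcription (t-UTP). UTP15 was at 9.38, 9.45 and 9.57 in CA and 9.21, 9.24 and 9.21 in DMSO (log2 change 0.25, SE 0.05, adjusted p = 0.0351 by limma). CA replicate 3 was the highest array, without which the change was 0.20 (adjusted p = 0.0680), and the other UTP15 probe set was at -0.01. HEATR1 was at 11.79, 11.75 and 11.76 in CA and 11.61, 11.56 and 11.63 in DMSO (log2 change 0.17, SE 0.04, adjusted p = 0.0384 by limma). Of its 5 probe sets, 4 were above 0. With 1 array left out, UTP15 kept its call only without CA replicate 1 (adjusted p = 0.0385), and HEATR1 lost it each time (adjusted p of 0.0810 to 0.112).

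The other processome genes did not pass the test. NOP14 (0.15, adjusted p = 0.0531) and the helicase DDX10 (0.15, adjusted p = 0.0553) came nearest. WDR43 (0.08) and WDR75 (0.05) are further t-UTP members, WDR3 (0.06) and UTP18 (0.02) belong to UTP-B, and UTP20 (0.05) is a large scaffold of the particle. RRP9, a protein of the U3 snoRNP, was at 0.12, the helicase DDX21 at 0.06 and NAT10, which acetylates 18S rRNA, at 0.07. DDX52, a helicase, was at -0.03 with overlapping groups.

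No late 40S factor was called, and 5 of 6 lay above 0. BYSL was at 0.15 (adjusted p = 0.129), TSR1 at 0.15 (adjusted p = 0.0669), LTV1 at 0.11, the export factor RRP12 at 0.11 and NOB1, the endonuclease that makes the 3′ end of 18S rRNA, at 0.08. PNO1, the partner of NOB1, was at -0.0005 (95% confidence interval -0.10 to 0.10). The 4 probe sets of TSR1 were all above 0, at 0.05 to 0.22.

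In 60S assembly, NOP2 rose and the other 6 measured members lay above 0 uncalled. NOP2 was at 9.84, 9.83 and 9.89 in CA and 9.65, 9.62 and 9.67 in DMSO, with no overlap (log2 change 0.21, SE 0.04, 1.16-fold, adjusted p = 0.0176 by limma). Its adjusted p was 0.0526 to 0.0645 with 1 array left out, past the threshold each time. PES1, the scaffold of the PeBoW complex, was at 8.79, 8.78 and 8.76 in CA and 8.64, 8.65 and 8.64 in DMSO. Its change of 0.13 (95% confidence interval 0.05 to 0.22, adjusted p = 0.0540) exceeded the spread within groups but not the threshold. Its partner WDR12 was at 0.07, and BOP1, which completes the complex, was not measured. NOP16, a known MYC target, was at 0.07 on the brightest of 4 probe sets that all lay above 0, NIP7 at 0.06, the GTPase GNL2 at 0.10 and RRP1B at 0.08.

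The choice of probe set mattered more for some genes than for others. The 41 members have 90 probe sets, of which 68 were above 0 and 22 below. Tested singly over all 54613 probe sets, 4 were called higher and 0 lower by limma: 2 of NOLC1, 1 of UTP6 and 1 of RRP1B (0.22). Over all probe sets 3% were called higher and 2.01% lower. The 49 probe sets that did not represent a gene had a median of 0.04, and 30 of them were above 0. Of the 26 members with several probe sets, 10 had all of them on 1 side of 0.

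**Figure D3:**
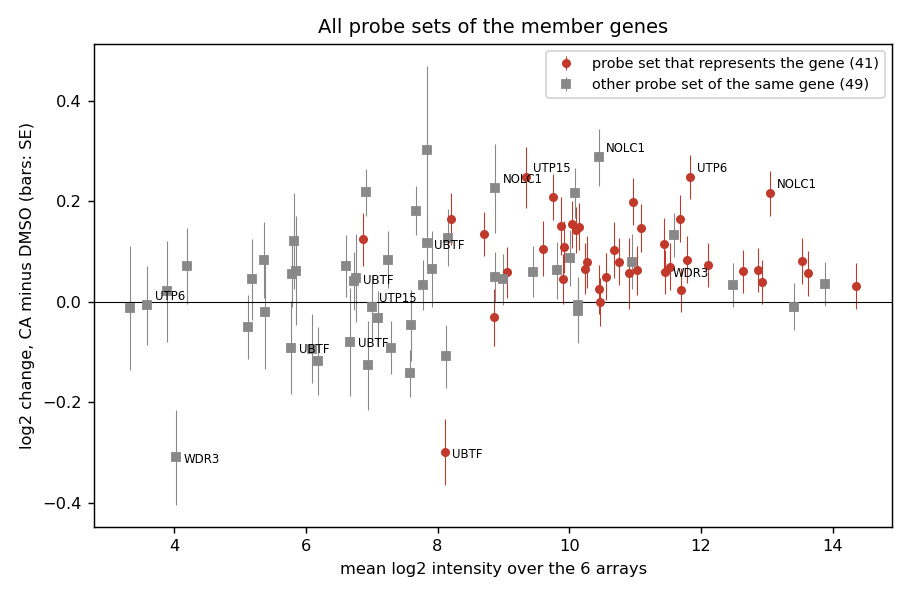
Log2 change, CA minus DMSO (y axis; bars are SE from the fit over single probe sets), against the mean log2 intensity over the 6 arrays (x axis) for all 90 probe sets of the members. Circles are the 41 probe sets that represent a gene and squares the 49 others; 3 of 41 circles lie below 0 and 19 of 49 squares, and the 5 probe sets of UBTF lie on both sides.

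Of 120 other ribosome biogenesis genes listed, 118 had values, and most of these also lay slightly above 0. Of the 118, 16 were called higher and 4 lower (13.6% and 3.39%, against 6.64% and 4.49% of all genes). Of them 90 (76.3%) lay above 0, against 48.8% of all genes, and the median was 0.07. They too are mostly bright, with a median level of 10.2. Among all genes whose level reached 9, 12.3% were called higher, 8.38% lower, and 50.7% lay above 0. Their share called higher was thus close to that of bright genes. ESF1, a nucleolar factor required for 18S rRNA in yeast, was at 11.91, 11.94 and 11.91 in CA and 11.35, 11.37 and 11.43 in DMSO. It rose by more than any member (log2 change 0.53, SE 0.04, adjusted p = 5.22e-04 by limma). MPHOSPH10 (0.29), which binds U3 snoRNA, TBL3 (0.25), a UTP-B subunit, NGDN (0.24), of the processome, and FTSJ3 (0.23), a methyltransferase, rose too. EXOSC6, a subunit of the RNA exosome, fell (-0.31, adjusted p = 0.0128).

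The arrays also carry control probe sets for the products of the pathway, 18S and 28S rRNA. The labels name a 3′ kit, which primes on poly(A) tails that mature rRNA lacks, so these signals show rRNA carried into the labelling and not the rRNA content of the cells. The 28S middle probe set was at 11.46, 11.50 and 11.46 in CA and 11.07, 11.02 and 11.11 in DMSO. The 28S 5′ probe set was at 12.97, 12.85 and 12.76 in CA and 12.50, 12.57 and 12.73 in DMSO. On these the CA arrays were all higher, by 0.40 and 0.26 (exact permutation p = 0.1, 2-sided, the smallest that 3 against 3 arrays allow). The 28S 3′ probe set, dim at 5.37, 5.30 and 5.35 in CA and 5.53, 5.42 and 5.61 in DMSO, went the other way (-0.18, exact p = 0.1). The mean of the 3 was 9.89 ± 0.04 in CA and 9.73 ± 0.08 in DMSO (SD, n = 3; exact p = 0.1).

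For 18S no such difference was seen. The mean of its 3 probe sets was 13.10, 13.06 and 13.02 in CA and 12.97, 12.97 and 13.15 in DMSO, with overlapping groups (0.03, exact p = 0.7). DMSO replicate 3 was the highest array. Over the 12 control measures tested, the adjusted p of the exact tests was 0.24 at the lowest, and this test cannot reach 0.05 with 3 arrays a group. Since the arrays fall into 2 treatment groups, with only 3 arrays in each, no correlation of the members with the rRNA signals was computed.

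**Figure D4:**
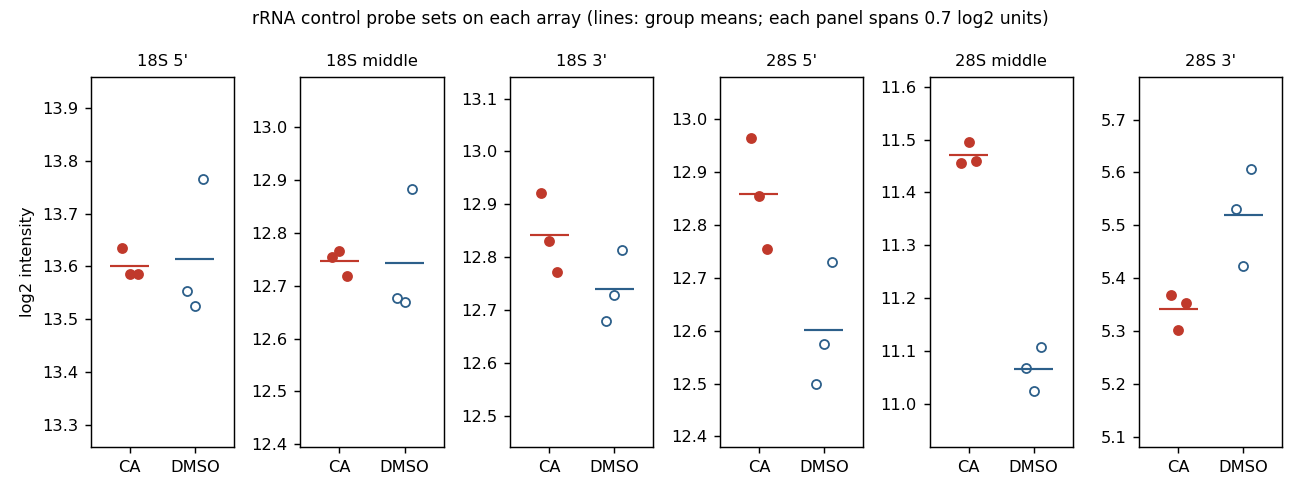
Log2 intensity (y axis) of the 3 control probe sets of 18S and the 3 of 28S rRNA on the 3 CA arrays (filled, left) and the 3 DMSO arrays (open, right), with lines at the group means and panels of equal height in log2 units. The 28S 5′ and middle probe sets are higher on every CA array, the 28S 3′ one is lower, and the 18S panels overlap.

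One measure of RNA integrity differed between groups without overlap. For GAPDH, the 3′ signal less the 5′ signal was 0.48 ± 0.05 in CA and 0.38 ± 0.02 in DMSO (SD, n = 3; exact permutation p = 0.1), and its part in these results was not tested. The same difference for ACTB was 2.38 ± 0.07 in CA and 2.27 ± 0.13 in DMSO (SD, n = 3; exact permutation p = 0.3), with overlapping groups. Poly-A spikes added to the RNA were at 8.59 ± 0.22 in CA and 8.47 ± 0.10 in DMSO (exact p = 0.5). Leukaemia and myeloid markers were at very different levels, with FLT3 (11.72 in CA and 11.69 in DMSO) and LYZ (13.33 in CA and 13.38 in DMSO) bright, and SPI1 (5.59 in CA and 5.51 in DMSO) and ANPEP (4.54 in CA and 4.29 in DMSO) dim. Of 10 measured leukaemia and myeloid markers 1 (MEIS1) was called higher and 4 (PTPRC, CSF1R, CD4 and ITGAM) lower by limma, and their part in the results above was not tested. Of 13 measured markers of T, B, erythroid, epithelial and stromal cells 0 were called by limma, and CD3D and EPCAM had an unadjusted p under 0.05.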

How the data were processed

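Expression was measured in 3 CA and 3 DMSO samples, 1 array each. The authors deposited log2 intensities, 1 value per probe set and array. The submitters' processing notes name RMA and affy, while their versions, and which arrays shared a normalization, were not given in the sources used here. RNA was isolated with 1 of 2 reagents, per the labels' protocols, which do not say which sample had which. Arrays have no sequencing depth, and their number limits the precision. RMA compresses large changes.

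Of 54675 probe sets, 62 were controls and 41091 had 1 gene symbol, 41037 of them matched by Entrez number to RefSeq (GRCh38.p14). Another 1801 had several symbols and were used for no gene. The probe set with the highest mean stood for each gene, without a filter on level. Differences (CA minus DMSO) came from limma 3.58.1 (R 4.3.3; lmFit and eBayes, 2-sided, no covariates) fitted to 19775 genes, called at an adjusted p under 0.05 (Benjamini-Hochberg), with intervals at 95%. The code was tested on simulated data. Control probe sets were compared by exact permutation.

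The members and lists were chosen with earlier results of these data known. Values on every array are given for called members and for POLR1A, RRN3, FBL, NCL, NPM1 and PES1 (DKC1 and BOP1, also chosen, had none). Of the other pathway genes, the 6 called with the largest change are named. Alternatives covered the probe set, level, scaling, moderation, weights, block, threshold and each array left out.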

Additional observations from a re-analysis of the deposited data

How the results depend on the processing

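The members' median was 0.07 to 0.11 under the 13 of 19 alternatives that could move it, above that of all genes each time. The number called depended on the setting: more members were called higher than lower in 16 of 19, and their share called higher exceeded that of all genes in 13 of 19. Of the members, 13 were called higher with testing limited to genes whose mean log2 reached 6 and 20 with an intensity trend and robust moderation (background 17.4% and 10.7%). With arrays centred on 9 measured reference genes 12 were called (median 0.11; background 8.59%), but of those genes HPRT1 was itself called lower (-0.21), with GAPDH at -0.14 and YWHAZ at -0.15. At an adjusted p under 0.1 also 12 were called (background 9.45%). A limit of 9 on the mean log2 was chosen after seeing the data. With testing so limited, 18 of 36 members were called higher and 0 lower (background 26.5% and 23.2%). On the mean of all probe sets 3 of 41 were called higher and 0 lower (background 5.23%). The share was below background on the probe set of largest variance (1 of 41 higher; 4.25%), at an adjusted p under 0.01 (1 higher and 0 lower; 2.90%) and at a change of at least 1.2-fold (0 higher, UBTF lower; 4.02%). With any 1 of the 6 arrays left out, 1 to 3 were called higher and 0 or 1 lower, and the median was 0.069 to 0.098. Without CA replicate 2 or 3 the 1 of 41 called higher was below the background of 3.74% and 3.65%. UTP6 was called in each of these 6 fits, NOLC1 in all but those without CA replicate 2 or 3 (adjusted p of 0.0531 and 0.0532), UTP15 without CA replicate 1 and UBTF without CA replicate 2. GAR1, HEATR1 and NOP2 were called in none (adjusted p of 0.0503 to 0.112). With the replicate number as a block, 1 member was called higher and 0 lower, and 2 and 1 of the 118 other pathway genes, both shares of higher calls below the background of 3.62%. Same-numbered arrays correlated at 0.02 to 0.03 in their deviations, no array best with its own number, so the numbers were not taken as pairs.

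The other ribosome biogenesis genes had 9 higher and 2 lower on the mean of all probe sets (median 0.048), 7 and 1 on the probe set of largest variance (0.047), and 4 higher on probe sets not marked _x_at or _s_at (0.039). With the limit on mean log2 at 6 they had 38 higher (background 17.4%). With it at 9 they had 40 higher and 7 lower (background 26.5% and 23.2%), and with an intensity trend 41 higher (background 10.7%). Centred on reference genes 2 were lower (median 0.10, background 3.17%). At an adjusted p under 0.01 2 were higher and 0 lower (background 2.90% and 1.58%). Under 0.1 26 were higher (background 9.45%), and at 1.2-fold 2 higher and 1 lower (background 4.02% and 2.30%). With 1 array left out, 3 to 11 were higher and 1 or 2 lower, with a median of 0.057 to 0.081.

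Signs turned for members near 0 or with several probe sets. On the mean of all probe sets, POLR1B was at -0.022, WDR3 at -0.12, DDX52 at 0.038, PNO1 at 0.020 and WDR12 at -0.066. On the probe set of largest variance POLR1B was at -0.11, MYBBP1A at -0.047, NCL at -0.050, WDR3 at -0.31, DDX10 at -0.012, DDX52 at 0.021, PNO1 at 0.066 and WDR12 at -0.13. On probe sets not marked _x_at or _s_at POLR1B was at -0.092, NCL at -0.050, WDR3 at -0.31, RRP12 at -0.093 and PNO1 at 0.066. Scaling to array medians put PNO1 at 0.0089, to reference genes PNO1 at 0.033 and DDX52 at 0.0023, and array weights PNO1 at 0.00094. With 1 array left out, PNO1 ranged from -0.029 to 0.016 and DDX52 from -0.074 to 0.00095. None of these was called, and the cause was not tested.

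For rRNA, the 18S mean difference ranged from -0.0013 without DMSO replicate 1 to 0.091 with DMSO replicate 3 left out, and was -0.013 on the 5′, 0.0029 on the middle and 0.10 on the 3′ probe set. That of 28S was 0.26 on the 5′, 0.40 on the middle and -0.18 on the 3′ probe set, and 0.13 to 0.20 with 1 array left out. Centring on reference genes moved the share of higher calls over all genes to 73.0%, against 59.7%.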
